A study of Mus musculus with 8 samples.

Results

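The genes described here are those of the mouse MHC class II presentation system: the classical chains H2-Aa, H2-Ab1 and H2-Eb1, the peptide-exchange genes H2-DMa, H2-DMb1, H2-DMb2, H2-Oa and H2-Ob, the invariant chain gene Cd74, and Ciita, the class II transactivator. They were chosen by name, with earlier results of these data known, as the 10 genes whose symbol or older symbol (C2ta for Ciita) is printed on a non-control probe of the array. They had 16 probes among 41174, and 12 of those probes were bright enough to be tested. By gene, 9 of the 10 were among the 19980 tested gene features of 27573 on the array, and H2-Aa was not. Per the probe locations in the files (build mm8), 8 of the genes lie within 218 kb on chromosome 17, Ciita on chromosome 16 and Cd74 on chromosome 18.

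Expression was read on 8 two-colour Agilent arrays of mouse RNA. All RNAs came from bone marrow pro/preB cells of Pax5-/- mice. Pax5 is the transcription factor by which a progenitor becomes a B lineage cell. The cells were kept with IL-7 on irradiated OP9 cells, a stromal feeder line. Clone 4 carried a retroviral human Pax5 transgene (huPax5, vector pSR-TRE-huPax5) and a retroviral rtTA, the transactivator that switches the transgene on when doxycycline is given. Its RNA was taken after 10, 300 or 1000 ng/ml doxycycline. The fourth RNA, Pax5sz2, came from Pax5-/- pro/preB cells transduced with rtTA alone, and its label says doxycycline with no dose. Each of these 4 named RNAs was hybridised in both dye orientations, and so on 2 arrays, with RNA whose label is clone 4 at 0 ng/ml doxycycline. Clone 4 is 1 clone, and Pax5sz2 differs from the control in the cells, in the transgene and in doxycycline, which cannot be told apart. The doses address what changes with the inducer, and Pax5sz2 addresses cells given doxycycline but no huPax5.

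Each comparison thus rests on 1 RNA of each kind, with the arrays as technical repeats. Replicate cultures are not among the labels, so a single comparison has no p-value, and each ± below is the SD of its 2 arrays (n = 2 arrays). A ratio is the log2 of named RNA over clone 4 without doxycycline, so that -1 means 2-fold lower in the named RNA. A gene passed the size when its ratio was at least 2-fold in the same direction on both arrays, and it was read from its brightest probe. The control has the same label in the 4 comparisons, and the labels do not say whether it was 1 extract, so their ratios are set side by side and cannot be taken as independent of each other. The mouse Pax5 probes do not check the labels, since the cells have no intact mouse gene and carry a human transgene.

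Which way the 1000 ng/ml pair runs was not settled, and this touches every result below. Its arrays were rehybridised slides scanned and processed under an older protocol than the 6 others, and its dose cannot be told apart from its batch. With the same dye orientation, its ratios and the 300 ng/ml ratios correlated negatively over 41174 probes, at r = -0.36 (named RNA in Cy5) and r = -0.46 (Cy3). Probes of 1 array are not independent replicates. The library labelled as untreated control on these arrays had a log2 level of 16.47 for Blnk, a Pax5-dependent signalling adaptor gene, against 11.85 to 12.01 for the control on the other arrays. The labels were kept, and a turned sign is named where it is used.

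MHC class II molecules are cell-surface heterodimers that show peptides from the endosomes to CD4+ T cells. The invariant chain, made from Cd74, holds the newly made dimer closed and guides it to the endosome, H2-DM removes the last invariant chain fragment and lets peptide in, and H2-O restrains H2-DM, in B cells above all. Transcription needs Ciita, which binds no DNA itself and docks on an assembly of RFX, CREB and NF-Y factors at the X and Y boxes of the class II promoters. In the mouse B lineage surface class II appears late, and pro-B and pre-B cells have little of it.

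The promoters are printed first because H2-Eb1, which was dim in these cells, and H2-DMb1, H2-DMb2 and H2-Ob, which were read above background, hold the same box letters. RefSeq promoters (build GRCm38.p6) were in the table for 7 of the 10 genes, with 8 promoters in all. H2-Ab1, Cd74 and Ciita are named only. The windows run from 130 to 31 bases before the annotated start, 5′ to 3′ on the strand of the gene, and capitals mark the X box letters and the Y box letters.
H2-Aa: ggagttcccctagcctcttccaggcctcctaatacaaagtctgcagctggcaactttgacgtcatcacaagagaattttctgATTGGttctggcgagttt
H2-Eb1: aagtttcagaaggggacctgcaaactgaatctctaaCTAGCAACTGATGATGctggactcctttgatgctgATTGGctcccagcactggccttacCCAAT
H2-DMb1: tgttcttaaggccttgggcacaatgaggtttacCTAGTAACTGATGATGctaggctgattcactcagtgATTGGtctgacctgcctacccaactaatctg
H2-DMb2: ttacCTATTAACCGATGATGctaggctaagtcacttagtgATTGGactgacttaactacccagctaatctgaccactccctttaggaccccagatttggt
H2-Oa: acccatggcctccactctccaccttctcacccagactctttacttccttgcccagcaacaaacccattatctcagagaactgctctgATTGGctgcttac
H2-Ob: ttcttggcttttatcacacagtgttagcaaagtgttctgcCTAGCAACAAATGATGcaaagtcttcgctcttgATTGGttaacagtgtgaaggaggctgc

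These windows lie at chr17:34287854-34287953 on the minus strand for H2-Aa, and on the plus strand at chr17:34305737-34305836 for H2-Eb1, chr17:34153061-34153160 for H2-DMb1, chr17:34145119-34145218 for H2-DMb2, chr17:34092249-34092348 for H2-Oa and chr17:34238775-34238874 for H2-Ob. Both strands of the 250 bases before each start were searched for the X box letters CTANNAACNNATGATG, where N is any base, and for the Y box letters ATTGG, which read CCAAT on the opposite strand. The motifs do not overlap each other. The X box letters stood in 4 of the 8 class II promoters, those of H2-Eb1, H2-DMb1, H2-DMb2 and H2-Ob, and in 5 of all 32851 promoters (0.0152%), the fifth being that of Frmd4b. The X letters are what these 4 promoters share over the 16 bases that end in ATGATG, where ATTGG follows after 15 to 25 bases, so that share is a description and no test. The Y box letters stood in 7 of the 8, and in 33.8% of all promoters. In the 4 promoters with both, the Y box letters followed the X box letters after 20 bases in H2-DMb1 and in H2-DMb2, 19 bases in H2-Eb1 and 17 bases in H2-Ob. H2-DMb1 and H2-DMb2 are near copies here, with 50 of 60 bases the same from the first X box letter on (83.3%). A window without the letters says nothing of what binds there.

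**Figure D1:**
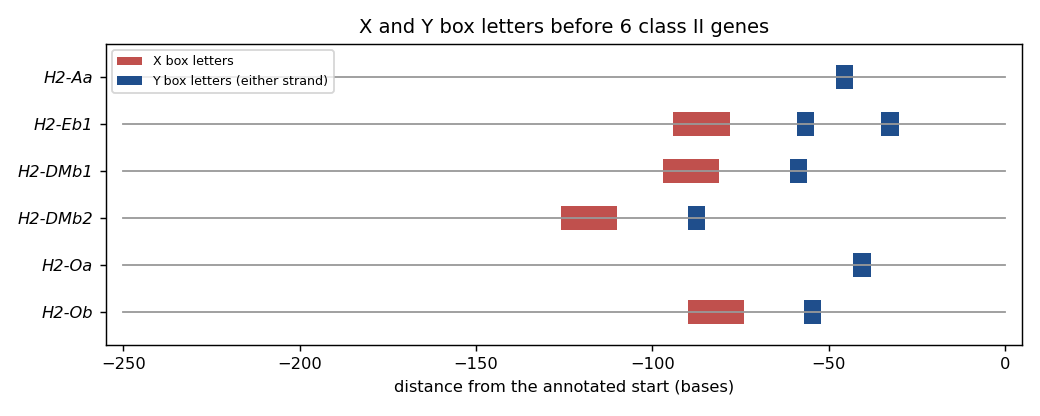
Positions of the X box letters (red) and Y box letters (blue, either strand) in the 250 bases before the annotated start of 6 class II genes; the horizontal axis is the distance from the start in bases. The X box letters begin 97, 126, 94 and 90 bases before the start in H2-DMb1, H2-DMb2, H2-Eb1 and H2-Ob, each followed by the Y box letters.

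The classical chains and Ciita were at or near background in all RNAs, whereas most readings of the H2-DM, H2-O and invariant chain genes were above it. A reading is 1 probe in 1 channel of 1 array. For the 7 probes of H2-Aa, H2-Ab1 and H2-Eb1, the alpha and beta chains of the surface molecule, 31 of 112 readings were well above background, all on the 6 arrays outside the 1000 ng/ml pair, and log2 levels lay between 5.98 and 6.89. For the 8 probes of H2-DM, H2-O and Cd74, 122 of 128 readings were well above background, with levels from 6.30 to 10.92. The levels of H2-DMb2 (6.30 to 7.45) and H2-Ob (6.37 to 8.08) overlapped those of the classical chains. The call of a reading as above background was made with a different setting on the 1000 ng/ml arrays, where 40.4% to 45.1% of all spots passed it in a channel against 59.5% to 75.5% on the others.

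Among the classical probes H2-Ab1, the beta chain of H2-A, had the most readings above background, 11 of 16 for its brightest probe and 3, 2 and 2 of 16 for its others. H2-Eb1, the beta chain of H2-E, had 8 of 16, and the alpha chain H2-Aa had 4 and 1 of 16 with its probes. One H2-Ab1 probe was flagged and left out on 1 array at 10 ng/ml. The brightest H2-Ab1 probe gave control and named log2 levels of 6.61 and 6.64 on 1 array and 6.71 and 6.59 on the other at 10 ng/ml, and mean ratios of -0.04 there and -0.03 at 300 ng/ml. The named and control levels overlapped in each of these comparisons. Over all classical probes and arrays the ratio ran from -0.25 to 0.23, so no reading of a classical chain came near 2-fold in any comparison. A ratio between RNAs this close to background is compressed toward 0 by the offset of the background correction, and for H2-Aa the scanner's processed signals gave -0.62 at 10 ng/ml and 0.47 at 300 ng/ml.

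Ciita, without which the classical chains are hardly transcribed, was also dim. Its single probe was above background in 10 of 16 readings, none of them on the 1000 ng/ml arrays, with levels from 6.32 to 6.70. The ratios were -0.05 and -0.26 at 10 ng/ml (-0.16 ± 0.151), 0.14 and -0.22 at 300 ng/ml (-0.04 ± 0.253), and -0.12 and -0.06 in Pax5sz2 (-0.09 ± 0.0412). At 300 ng/ml the arrays of the dye swap fell on opposite sides of 0. As labelled, the 1000 ng/ml pair gave 0.13 and 0.01 with neither RNA above background. With the processed signals, Ciita was at -0.42 at 10 ng/ml, still short of the size.

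**Figure D2:**
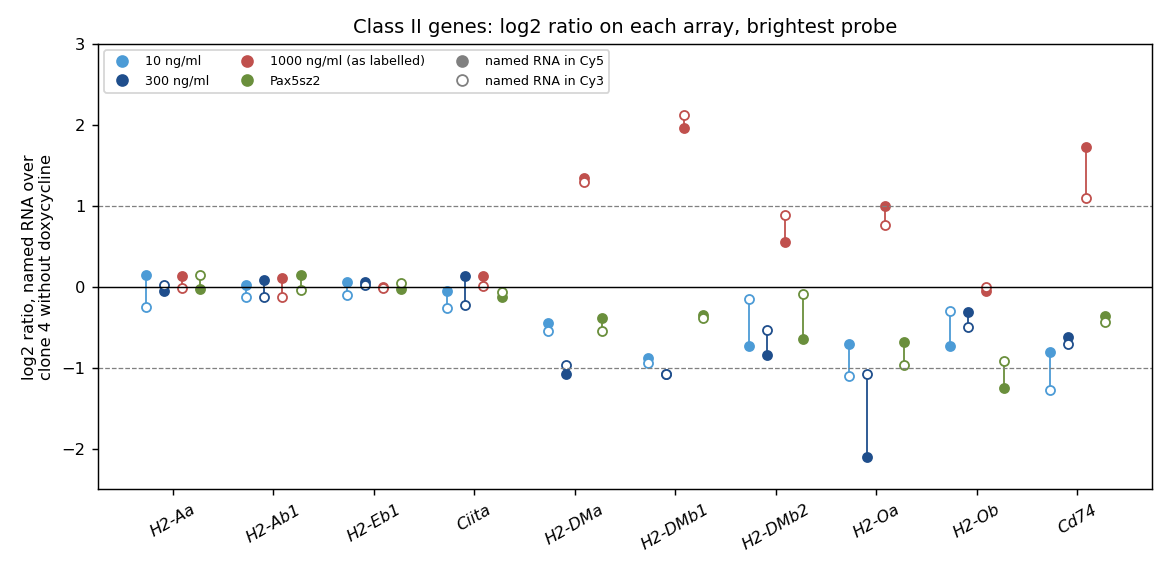
Log2 ratio of named RNA over clone 4 without doxycycline (vertical axis) for the brightest probe of each gene, with filled points for the array with the named RNA in Cy5, open points for Cy3 and dashed lines at 2-fold; colours are the 4 comparisons. H2-Aa, H2-Ab1, H2-Eb1 and Ciita stay near 0, while the DM, DO and Cd74 points lie below 0 at 10 and 300 ng/ml and in Pax5sz2, and 5 of those 6 genes lie above 0 in the 1000 ng/ml pair as labelled.

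H2-DMb1, the beta chain of the peptide exchanger, was lower at both lower doses. Its ratios were -0.88 and -0.94 at 10 ng/ml (-0.91 ± 0.0461) and -1.08 on both arrays at 300 ng/ml (-1.08 ± 0.000721), which is 2.12-fold lower and past the size. In log2 level the named RNA stood at 9.18 on both arrays at 300 ng/ml and the control at 10.26 and 10.27, so the RNAs did not overlap. Pax5sz2 showed a smaller difference, with -0.35 and -0.38 (-0.36 ± 0.0233). In the 1000 ng/ml pair the ratio was 1.96 and 2.12 as labelled (2.04 ± 0.115), or -2.04 with the sign turned. There the named RNA was at a mean level of 9.73 and the control at 7.69, whereas the control stood between 10.20 and 10.30 in the 3 other comparisons.

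The second H2-DMb1 probe lists accessions of both H2-DMb1 and H2-DMb2, and so cannot be given to either gene with certainty. It read -0.67 and -0.19 at 10 ng/ml, -0.58 and -0.81 at 300 ng/ml, -0.60 and -0.05 in Pax5sz2, and 0.95 and 0.70 in the 1000 ng/ml pair, where the control was not above background. It had the sign of the brighter probe on each array, and passed the size in none. H2-DMb2, the gene for the other DM beta chain of the mouse, gave -0.73 and -0.15 at 10 ng/ml (-0.44 ± 0.411) and -0.84 and -0.53 at 300 ng/ml (-0.69 ± 0.216). In Pax5sz2 it gave -0.64 and -0.09 (-0.36 ± 0.385). For H2-DMb2 the array with the named RNA in Cy5 read lower than its dye swap in these 3 comparisons, and the SD at 10 ng/ml was close to the ratio itself. In the 1000 ng/ml pair H2-DMb2 was at least 1.41-fold higher as labelled, with the control not above background (measured ratio 0.72 ± 0.24).

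H2-DMa, the alpha chain that pairs with either beta chain, was most below the control at 300 ng/ml. Its ratios were -0.44 and -0.55 at 10 ng/ml (-0.50 ± 0.0751) and -1.07 and -0.97 at 300 ng/ml (-1.02 ± 0.0692), so that the mean was past 2-fold and 1 array just short of it. Pax5sz2 gave -0.38 and -0.54 (-0.46 ± 0.115), a value like that at 10 ng/ml. The 300 ng/ml RNA had levels of 7.21 and 7.36 against 8.28 and 8.34 in the control. In the 1000 ng/ml pair H2-DMa measured 2.49-fold higher as labelled (1.34 and 1.29, or -1.32 ± 0.0298 with the sign turned). The control was not called above background there, though its levels (7.35 and 6.94) lay over the detection level of 6.75.

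H2-Oa, the alpha chain of the H2-DM inhibitor, had the lowest mean ratio of the 10 genes at 300 ng/ml, by its brightest probe. That probe gave -2.10 and -1.07 there (-1.58 ± 0.73, 3.00-fold lower), and the size was passed on both arrays although they differed from each other by more than 2-fold. The rank rests on the array with -2.10, since H2-DMb1 was at -1.08 on the dye swap. That array had the most flagged spots of the 8 (295). The 2 arrays at 300 ng/ml correlated at r = 0.627 over all probes, against 0.785 to 0.909 for the other pairs. A second H2-Oa probe gave -0.76 and -1.12 at 300 ng/ml (-0.94 ± 0.256), which did not pass. At 10 ng/ml the brightest probe gave -0.70 and -1.10 (-0.90 ± 0.282) and the second -0.69 ± 0.301. In Pax5sz2 they gave -0.82 ± 0.199 and -0.78 ± 0.0967, so both probes were below 0 on each array of these 3 comparisons. The 1000 ng/ml pair had 0.88 ± 0.172 and 0.93 ± 0.177 as labelled.

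H2-Ob, the beta chain of the same inhibitor, did not run with its partner in each RNA. Its ratios were -0.73 and -0.30 at 10 ng/ml (-0.51 ± 0.303) and -0.31 and -0.49 at 300 ng/ml (-0.40 ± 0.128). It was lowest in Pax5sz2, at -1.25 and -0.92 (-1.08 ± 0.233), with 1 of the 2 arrays past 2-fold. The named level in Pax5sz2 was 6.37 and 6.79 and the control level 7.61 and 7.70. In the 1000 ng/ml pair H2-Ob was at -0.05 and 0.00 (-0.03 ± 0.0418), the only one of the 6 DM, DO and invariant chain genes near 0 there, and both RNAs were above background.

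Cd74, the invariant chain gene, was below the control in both lower doses and in Pax5sz2. It gave -0.80 and -1.27 at 10 ng/ml (-1.04 ± 0.331, 2.05-fold lower), where 1 array was short of the size, and -0.62 and -0.70 at 300 ng/ml (-0.66 ± 0.054). In Pax5sz2 it gave -0.36 and -0.43 (-0.40 ± 0.0521). The control level on 1 array at 10 ng/ml was 9.81 and on its dye swap 10.72, and the named RNA stood at 9.01 and 9.45, so that the RNAs did not overlap. The 1000 ng/ml pair gave 1.73 and 1.1 as labelled (1.41 ± 0.441) or -1.41 with the sign turned, from levels of 10.46 and 10.92 against 9.19 and 9.35.

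**Figure D3:**
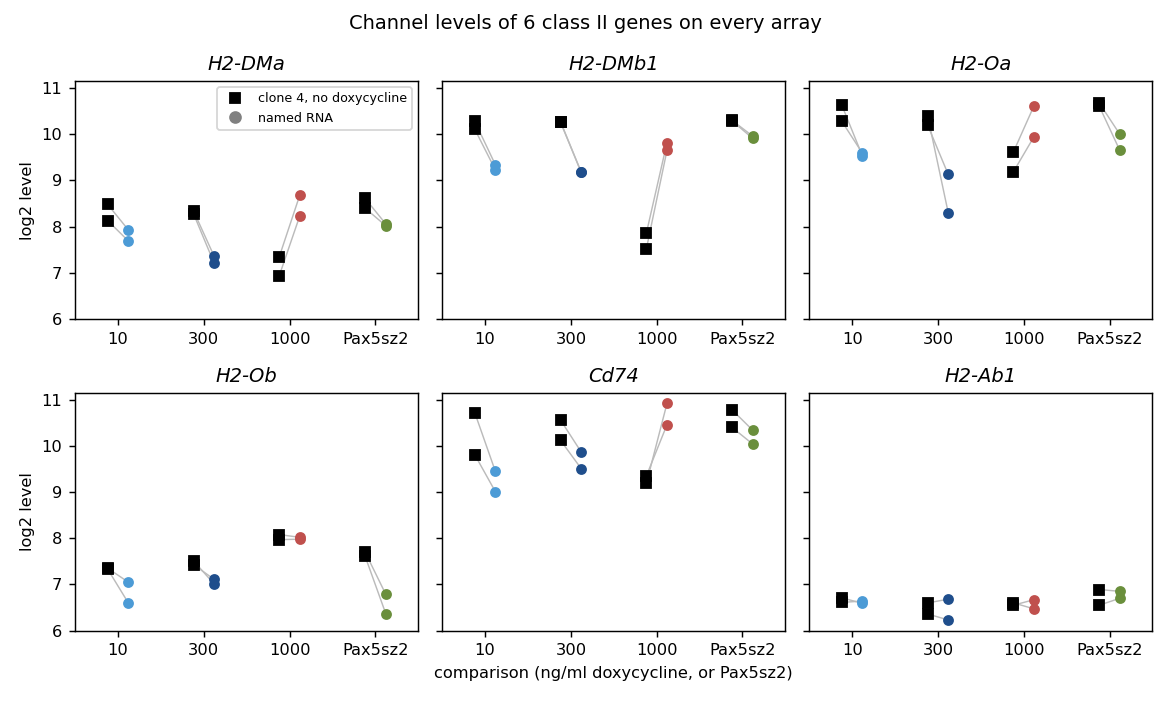
Log2 channel level after normalization (vertical axis) of 6 class II genes in clone 4 without doxycycline (black squares) and in the named RNA (coloured circles), with a grey line joining the channels of 1 array; the horizontal axis gives the comparison. The H2-DMb1 control lies between 10.11 and 10.30 except on the 1000 ng/ml arrays, where it lies at 7.52 and 7.86, and both H2-Ab1 groups stay between 6.23 and 6.89.

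Counted over the 9 tested genes, 0 passed the size at 10 ng/ml, where 1.88% of all tested features did (0.606% higher and 1.27% lower). At 300 ng/ml 2 were lower, H2-DMb1 and H2-Oa, and 0 higher, against 2.37% of all features lower, 1.31% higher and 3.67% in either direction. As labelled, the 1000 ng/ml pair had 3 higher, H2-DMa, H2-DMb1 and Cd74, against 1.94% higher, 0.636% lower and 2.57% in either direction, and the same 3 would be lower with the sign turned. In Pax5sz2 0 passed, against 5.17% of all features (2.34% higher and 2.83% lower). Of the 9, H2-Ab1, H2-Eb1 and Ciita were above background in only 11, 8 and 10 of 16 readings.

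The median ratio of the 9 genes was -0.50 at 10 ng/ml, where that of all tested features was 0.01, and -0.66 at 300 ng/ml against 0.00. It was -0.36 in Pax5sz2 against 0.03, and 0.72 as labelled at 1000 ng/ml against 0.00. Of the 9 tested genes 7, 6 and 7 were below 0 on both arrays at 10 ng/ml, 300 ng/ml and in Pax5sz2, where 36.0%, 35.2% and 35.2% of all features were. These included each of the 6 DM, DO and Cd74 genes. In the 1000 ng/ml pair 6 of the 9, and 5 of the 6, were above 0 on both arrays, against 33.7% of all. The 6 are what is left when the classical chains and Ciita, near background in these data, are set aside. Their count is thus a description and no test. Pax5sz2 differs from clone 4 without doxycycline in the cells, the transgene and doxycycline at once, which cannot be told apart. Why these genes were lower in Pax5sz2 was not tested. The genes lie close together on chromosome 17 apart from Cd74, and were read against controls of the same label, so they cannot be taken as independent readings. In bulk RNA, fewer cells of a type and less RNA per cell cannot be told apart.

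Over the doses together, limma fitted the mean ratio with each dose as 1 sample. It called 0 of 19980 features (0%) at an adjusted p under 0.05, with 1184 (5.93%) at an unadjusted p under 0.05, and 0 of the 9 class II genes at either. H2-Ob had the smallest adjusted p of the 9, 0.702 (mean -0.31 ± 0.13 SE). With the sign of the 1000 ng/ml pair turned, 0 features were called and 5 of the 9 class II genes had an unadjusted p under 0.05, as did 24.5% of all features. Among them H2-DMb1 had a mean of -1.35 ± 0.26 SE and an adjusted p of 0.125.

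The fit depended on the 1000 ng/ml pair. Without it, from 10 and 300 ng/ml alone, limma called 2907 features (14.5% of all, with 5.74% higher and 8.81% lower). Of the class II genes 3 of 9 fell: H2-DMb1 with a mean of -1.0 ± 0.08 SE (adjusted p = 0.0372), Cd74 with -0.85 ± 0.12 (adjusted p = 0.0484) and H2-Ob with -0.46 ± 0.07 (adjusted p = 0.0487). H2-Oa had a larger mean, -1.24 ± 0.21, and missed the threshold with an adjusted p of 0.0553, as did H2-DMb2 with -0.56 ± 0.09 (0.0539) and H2-DMa with -0.76 ± 0.16 (0.0748). Ciita (-0.10 ± 0.07, adjusted p = 0.382), H2-Ab1 (-0.03 ± 0.06, 0.722) and H2-Eb1 (0.01 ± 0.06, 0.911) were not called. These 2 samples have controls of the same label, and the fit leaves out the spread of the control.

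The RNAs of the factors that hold Ciita on class II promoters were read above background, apart from Rfx5 at 1000 ng/ml, and differed less than 2-fold. All 7 tested genes of this assembly were short of the size in each comparison, with list medians of 0.22, 0.33 and -0.16 at 10, 300 and 1000 ng/ml and -0.01 in Pax5sz2. Rfx5, the DNA-binding RFX subunit that reads the X box, gave 0.15 and 0.19 at 10 and 300 ng/ml and 0.23 in Pax5sz2. Its mean levels ran only from 6.75 to 7.45, and both RNAs were dim at 1000 ng/ml. Rfxank, its ankyrin-repeat partner, gave 0.33, 0.36, -0.16 and 0.16 at 10, 300 and 1000 ng/ml and in Pax5sz2. Rfxap, the RFX-associated protein gene, gave 0.32, 0.58, -0.51 and -0.08 in the same order, and another Rfxap probe differed in sign at 10 and 300 ng/ml. Some other genes of the list also had probes that differed in sign.

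Regulators upstream of Ciita differed in both directions. Of 10 tested, 2 were higher at 10 ng/ml, 2 at 300 ng/ml, and 2 higher and 1 lower as labelled at 1000 ng/ml, with 0 in Pax5sz2. Socs1, the feedback inhibitor of JAK signalling, was at 1.20 ± 0.0378, 1.21 ± 0.0698 and 1.09 ± 0.0636 at the doses in rising order, so it was higher and past the size at each as labelled (-1.09 at 1000 ng/ml with the sign turned), and at 0.62 in Pax5sz2. Irf4, a transcription factor of later B cell stages, was at 1.11 ± 0.0187 at 300 ng/ml and was the gene lower as labelled at 1000 ng/ml, where the named RNA was not above background.

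Ifngr1, a chain of the interferon-gamma receptor, had signs like those of the DM genes. It gave -0.28 and -0.08 at 10 ng/ml, -0.71 and -0.86 at 300 ng/ml, -0.75 and -0.45 in Pax5sz2, and 1.75 ± 0.105 as labelled at 1000 ng/ml. Spi1, the gene of the myeloid and B cell factor PU.1, gave -0.44 ± 0.375, -0.75 ± 0.209 and 0.36 ± 0.0575 at 10, 300 and 1000 ng/ml and -0.62 ± 0.252 in Pax5sz2, short of the size each time. Irf8, a partner factor of PU.1, was within 0.35 of 0 at the 3 doses and at -0.93 and -1.25 in Pax5sz2 (-1.09 ± 0.222), where 1 array was short of the size.

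The endosomal proteases and their helpers, 8 genes, had median ratios of -0.22, -0.60 and, as labelled, 0.48 at the doses in rising order and of -0.33 in Pax5sz2. At 1000 ng/ml 2 were past the size and higher, and 0 of the 8 passed in the other comparisons. Ctss, the protease that trims the invariant chain, gave -0.12, -0.07 and 0.65 at 10, 300 and 1000 ng/ml and -0.01 in Pax5sz2. Lgmn, an asparagine-specific endopeptidase gene, gave 1.46 ± 0.0782 as labelled at 1000 ng/ml and -2.20 and -0.08 at 300 ng/ml, where the arrays disagreed. Cst3, the gene of the protease inhibitor cystatin C, gave 1.09 ± 0.000286 as labelled at 1000 ng/ml and -0.89 and -1.05 at 300 ng/ml. Of the 5 tested genes for turnover and costimulation of antigen-presenting cells, 0 passed in any comparison, with medians of -0.05, -0.18, 0.23 and 0.22 at 10, 300 and 1000 ng/ml and in Pax5sz2. Of the 32 genes on these lists 30 were tested.

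**Figure D4:**
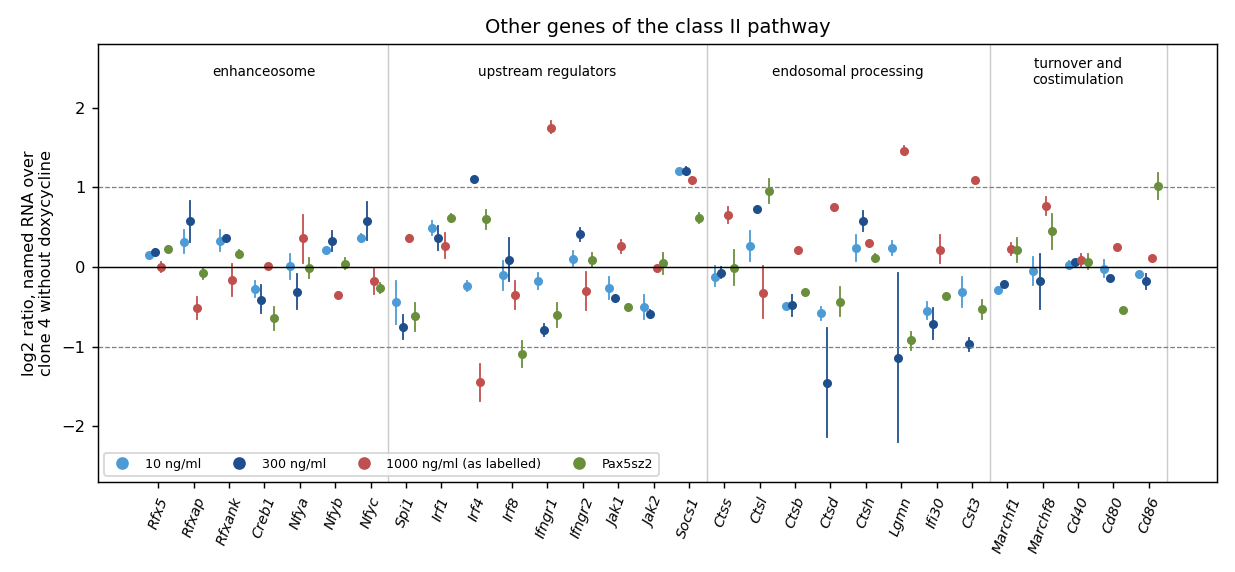
Log2 ratio of named RNA over clone 4 without doxycycline (vertical axis) for tested genes of the pathway lists; points are the means of 2 arrays, vertical lines join the arrays, colours are the comparisons and dashed lines mark 2-fold. As labelled, Socs1 lies above 1 at each dose, while Ifngr1, Lgmn and Cst3 lie above 1 only in the 1000 ng/ml pair.

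Genes listed as markers of other cell types also differed between the RNAs. The dendritic cell list had 8 of 10 genes tested, of which 3 were lower at 300 ng/ml and 1 lower at 10 ng/ml. As labelled, 2 were higher at 1000 ng/ml, and 1 was higher in Pax5sz2. The 3 at 300 ng/ml were Cd7, Siglech and Itgax, whose other probe gave 0.05. Flt3 had a mean of -1.16 there, whereas Ccr7 (0.50), Zbtb46 (0.17), Batf3 (0.11) and Xcr1 (0.06) were above 0. The summed level of the list at 300 ng/ml was 972 to 1119 in the named RNA and 1574 to 1576 in the control. At 10 ng/ml it was 1230 to 1414 against 1538 to 1637, at 1000 ng/ml 1452 to 1825 against 964 to 1187 as labelled. In Pax5sz2 it ran the other way from the class II genes, with 2452 to 2574 against 1698 to 1917, although the median ratio of the list was only 0.16 and Cd7, the gene past the size, had levels of 9.90 against 8.68. Clec9a and Cd209a, defining markers, did not pass the filter on dim probes, and Itgax, the gene of CD11c, was not above background in the named RNA at 300 ng/ml.

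For macrophages and monocytes 8 of 9 genes were tested, with 1 lower at 300 ng/ml and 1 higher as labelled at 1000 ng/ml. In both cases it was the mannose receptor gene Mrc1, whose control was not above background at 1000 ng/ml. At 300 ng/ml Mrc1 was at -1.99, with levels of 8.43 against 10.42 in the control. Fcgr1 (0.37) and Cd14 (0.26) were above 0 there, and Itgam (-0.61), Csf1r (-0.57), Cd68 (-0.41), Lyz2 (-0.35) and Adgre1 (-0.08) below it. The summed level of the list, Mrc1 included, was 2672 to 2912 against 4366 to 4455 in the control at 300 ng/ml. It was 4266 to 4601 against 2157 to 2497 at 1000 ng/ml, and overlapped the control at 10 ng/ml and in Pax5sz2. Of the 8, 7 were dim in the control at 1000 ng/ml, and Lyz2, the lysozyme gene and the eighth, had levels of 11.58 against 10.57, while its other probe gave a ratio of 0.10. Whether such cells were in the cultures, and what part they had in the DM, DO and Cd74 ratios, was not tested. Of 11 stromal feeder genes, 3, 7 and 0 were higher at 10, 300 and 1000 ng/ml and 3 were in Pax5sz2. Their summed level was 37599 to 43048 against 18592 to 20153 in the control at 10 ng/ml, and 39894 to 48969 against 12944 to 19110 at 300 ng/ml. It was 36208 to 37561 against 19986 to 20663 in Pax5sz2, and 18564 to 22266 against 19336 to 22436 at 1000 ng/ml. Col1a2 was flagged and left out on 1 array at 300 ng/ml, so the sums of the arrays there are not over the same genes. The summed feeder level was thus higher in the comparisons in which the DM, DO and Cd74 genes were below the control. The part of the feeder genes in those ratios was not tested. Not each feeder gene was higher. In Pax5sz2 Col1a2 was at 0.01, Col1a1 at 0.18 and Fn1 at -0.24, against a list median of 0.72. Cxcl12 had levels of 14.24 against 12.46 there. A second Col3a1 probe gave -0.04 and -0.02 at 10 and 300 ng/ml, beside 1.27 and 1.91 for the brightest. Of the 3 tested mature B cell markers 0 passed in any comparison.

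The labelled cell type was read on 9 B lineage precursor genes. Cd79b, Ebf1, Rag1 and Il7r were above background in all RNAs, whereas Vpreb1 and Igll1, which encode the surrogate light chain, were near background in clone 4 with or without doxycycline on the dose arrays (levels 6.07 to 7.08). In Pax5sz2 2 of the 9 genes were past the size and higher, Vpreb1 at a ratio of 7.88 and Igll1 at 5.65. Another 2 were past it and lower, Dntt at -4.89 and Ebf1 at -1.58, and the other Ebf1 probe gave -0.25. At 300 ng/ml Dntt was read on 1 array, at -2.48. Rag2 and Kit were short of the size in each comparison. The clone 4 control on the Pax5sz2 arrays had levels of 9.93 for Vpreb1 and 8.66 for Igll1, above background on both arrays, so the control of that comparison did not read like the control on the dose arrays for these markers. Why it differs was not tested.

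The genes whose values over the 8 arrays lay nearest to the median of the 9 class II genes were found among 14723 tested features with a gene symbol. Zfp414, a zinc finger gene, was nearest with a root mean square difference of 0.11 on the log2 scale, with ratios of -0.56, -0.62, 0.61 and -0.31 at 10, 300 and 1000 ng/ml and in Pax5sz2. It was followed by Sppl2b (0.124) and Sppl3 (0.128), both genes of intramembrane proteases, Tmem171 (0.129) and Arhgap17 (0.142). They were set against the median of the 9 genes on each array, which is not the median of their mean ratios given above; averaged over the arrays of a comparison it was -0.50, -0.58, 0.65 and -0.37 in the same order, and likeness to it is a description over 8 arrays of 4 named RNAs, with controls of the same label.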

How the data were processed

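Scanner files of 8 two-colour Agilent arrays were used. Per the file headers, Feature Extraction 10.5.1.1 gave each spot's mean and local background intensity, processed intensity, and a log10 ratio of Cy5 over Cy3 made by the authors' scanner software. The deposited series matrix equals that log10 ratio, turned to named RNA over control, within 5e-06. Probe locations are on mm8 per the files. Limma 3.58.1 (R 4.3.3, the data.table package, version 1.17.8) corrected mean and background intensity with normexp (offset 50) and normalized log2 ratios within arrays by loess, with controls at weight 0. Flagged spots (37 to 295 per array) were left out, and 0 were saturated. Log2 levels are channel values after loess and Aquantile scaling. Spots of 1 probe were averaged, and a gene was its brightest probe: 33026 probes had a RefSeq symbol and 8148 kept their own name. Genes entered the tests when, in at least 1 comparison, both arrays called the probe well above background for 1 and the same RNA. Where an RNA was dim on both arrays, its level was raised to the detection level of the array if it lay below, and the fold is then a lower bound. A dim level above the detection level was kept, and the fold is then the measured one. The dye swap was averaged to 1 sample, and lmFit with eBayes fitted the 3 doses, two-sided, with Benjamini-Hochberg adjustment over all features. The number of arrays limits precision.

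The members and lists were chosen with earlier results of these data known. All members were named, list genes where past the size (at most the 4 largest per comparison and list), with Rfx5, Rfxap, Rfxank, Spi1, Irf4, Irf8 and Ctss whatever their value, and the 5 genes nearest to the members' median. Markers named for the check of labels and cell types (Blnk, Vpreb1, Igll1, Mrc1 and others) came from the marker lists, after their values were seen. Listed but not tested were Prdm1, Cd83, Clec9a and Cd209a, among others, and Ighd was not matched to a probe. A few listed genes are not reported here. The fit and the size rule were tested on simulated data. Alternatives were the background correction, centring, processed signals, deposited ratios, the dim filter, the rule for probes, the size, and leaving out arrays. Figures used Python 3.11.15 and matplotlib 3.10.9.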

Additional observations from a re-analysis of the deposited data

Results flagged for a closer look

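For 5 of the 6 DM, DO and Cd74 genes, both 300 ng/ml arrays lay on 1 side of 0 and both 1000 ng/ml arrays, as labelled, on the other; the difference was not tested. The log2 ratio at 1000 ng/ml as labelled minus that at 300 ng/ml was 3.13 for H2-DMb1, 2.46 for H2-Oa and 2.07 for Cd74. The measured difference was 2.34 for H2-DMa and 1.40 for H2-DMb2, whose control was not above background at 1000 ng/ml. With a control below the detection level raised to it, H2-DMb2 was at least 1.41-fold higher there, and H2-DMa stayed at the measured 2.49-fold. With the sign of the 1000 ng/ml pair turned, the differences were -0.96 for H2-DMb1, 0.71 for H2-Oa, -0.76 for Cd74, -0.29 for H2-DMa and -0.03 for H2-DMb2. H2-Ob was the exception, with -0.40 and -0.03. Of all features detected in both comparisons 5301 (45.0%) had opposite signs, so the genes described here share this with much of the array, and with the sign of the 1000 ng/ml pair turned they lie on the same side. Dose and array batch cannot be told apart for this pair. Groups of 1 sample could not be read for outlying samples.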

How the results depend on the processing

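The 6 DM, DO and Cd74 genes kept a mean below 0 at 10 ng/ml, 300 ng/ml and in Pax5sz2 under 7 other settings (median centring, processed signals, deposited ratios, an offset of 10, the mean of a gene's probes, and leaving out either array), and 5 kept one above 0 at 1000 ng/ml as labelled. Not all of these settings could change a sign. Both arrays lay on the same side of 0 already, so leaving out 1 could not. The deposited ratios repeated the processed signals for these genes, and the mean of a gene's probes left genes with 1 probe as they were. Counts past the size moved. At 10 ng/ml, 3 genes passed at 1.5-fold, with 8.34% of all features (0 at 2-fold). Leaving out 1 array gave 2 (2.78% of all) or 0 (3.45%). At 300 ng/ml, 1 passed with median centring (2.39% of all) and 1 with the mean of a gene's probes (2.76%). There were 4 at 1.5-fold (12.5%), against 2 as reported (3.67%). With processed signals 3 passed (9.29%), as with deposited ratios (9.26%) and an offset of 10 (5.2%). Leaving out 1 array gave 2 (5.47%) or 3 (11.3%). At 1000 ng/ml, 1 passed with median centring (0.961% of all), against 3 as reported (2.57%). There were 4 with processed signals or deposited ratios (4.6% for each), an offset of 10 (3.47%) or at 1.5-fold (6.84%). With the sign turned 3 were lower (H2-DMa -1.32, H2-DMb1 -2.04, Cd74 -1.41). Leaving out 1 array gave 3 each time (3.44% and 3.84%). In Pax5sz2, where 0 passed as reported, 1 passed with processed signals and 1 with the deposited ratios (10.8% of all for each). There was 1 with an offset of 10 (7.08%) and 2 at 1.5-fold (14.0%). Leaving out 1 array gave 0 (6.37%) or 1 (6.91%). The cause was not tested. The limma fit over the doses called 3 class II genes without the 1000 ng/ml pair and 0 under the other settings, leaving out 1 array included. Of the other values of single genes, 206 moved by less than the spread of the arrays and 77 by more. Leaving out 1 of 2 arrays cannot move a mean by more than their SD. The mean of a gene's probes changes nothing for a gene with 1 probe. Part of the 206 was thus fixed in advance, and that count is no measure of stability. No paired analysis was possible because the labels give no replicate numbers and each comparison holds 1 sample. Each comparison has its own slides, so a slide block could not be fitted. Signal over background limits what can be said of the classical chains and Ciita.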

Other observations

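H2-Ea, the alpha chain of H2-E, was not among the genes chosen. Its probe was not well above background in any RNA, and its ratios were -0.06, 0.01, 0.02 and -0.04 at 10, 300 and 1000 ng/ml and in Pax5sz2, with log2 levels from 5.90 to 6.03. Its partner chain H2-Eb1 was dim as well.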
